A study of Mus musculus with 9 samples.

Results

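The unfolded protein response genes described here are 33 genes of the endoplasmic reticulum (ER), chosen by name, that fold and import secreted proteins, degrade those that misfold, or sense misfolding. All 33 were found among the 54532 genes measured. Kidney messenger RNA came from male c57BL/6j mice aged 4 months, with 3 samples in each of 3 groups. The first group was hindlimb-unloaded mice injected intraperitoneally with 4-phenylbutyric acid (4-PBA, a small molecule used as a chemical chaperone) at 100 mg per kg per day, and its libraries are called PBA1, PBA2 and PBA3. The second was hindlimb-unloaded mice given vehicle (HU1, HU2 and HU3), and the last was untreated mice kept on the ground (GC1, GC2 and GC3). Hindlimb unloading suspends the hind limbs and is used as a ground model of microgravity and disuse. Unloading and vehicle differ together between HU and GC mice and cannot be told apart. The study asked whether ER stress rises in the unloaded kidney and whether 4-PBA lowers it.

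Proteins bound for secretion or for a membrane enter the ER through the Sec61 channel, are folded by chaperones, disulfide isomerases and sugar-binding lectins, and, if they fail to fold, are drawn back into the cytosol and degraded, a route called ER-associated degradation (ERAD). When misfolded protein builds up, the membrane sensors encoded by Atf6, Ern1 and Eif2ak3 become active. The first of them is cut to release a transcription factor, the second splices the messenger RNA of the transcription factor Xbp1, and the third slows translation. Together these factors raise the RNA of chaperone and ERAD genes, so the RNA of Hspa5, Herpud1 and their kin is widely used as a readout of ER stress, in kidney as elsewhere.

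Some of these genes share a DNA element through which the response acts. As the list holds known readouts of that response, how often the element occurs among them is a description and not a test. The ER stress response element was searched as CCAAT, any 9 bases and CCACG, on both strands of windows of 300 bases, 250 before and 50 after the transcription start, in RefSeq sequences of build GRCm38.p6, the same assembly as mm10. Of the 33 genes 28 had a window; Derl1, Sec61a1, Atf6, Hyou1 and Manf had none. The element occurred in 9 of these 28 genes (32.1%), against 37 of 26742 genes over the genome (0.138%). The genome counts in this paragraph include the members themselves. A shorter form, ATTGG, any base and CCACG, was found in Herpud1 and Dnajb11 among the 28 and in 12 genes (0.0449%) over the genome, and TGACGTGG, to which the cleaved sensor and Xbp1 bind, in Vcp among the 28 and in 193 genes (0.722%) over the genome. A match is a description of the letters in this window and not a bound site. The 10 matches of the full element in the 9 genes are printed in the direction of the motif, with its fixed letters in capitals; Hsp90b1 has 2 of them.
Hspa5: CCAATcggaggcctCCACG
Calr: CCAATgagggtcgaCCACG
Derl3: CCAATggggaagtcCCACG
Hsp90b1: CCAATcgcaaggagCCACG
Hsp90b1: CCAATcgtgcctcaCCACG
Canx: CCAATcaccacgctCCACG
Pdia6: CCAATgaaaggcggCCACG
Dnajc3: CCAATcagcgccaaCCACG
Creld2: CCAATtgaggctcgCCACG
Syvn1: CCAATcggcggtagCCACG

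Whole windows are shown, on the strand of the gene, for the main stress readout (Hspa5), the ERAD gene with the shorter form (Herpud1) and the ubiquitin ligase gene Syvn1, whose RNA passed the test below. They lie at chr2:34771840-34772139, chr8:94386179-94386478 and chr19:6046326-6046625, each on the plus strand, and capitals mark the fixed letters of the element.
Hspa5: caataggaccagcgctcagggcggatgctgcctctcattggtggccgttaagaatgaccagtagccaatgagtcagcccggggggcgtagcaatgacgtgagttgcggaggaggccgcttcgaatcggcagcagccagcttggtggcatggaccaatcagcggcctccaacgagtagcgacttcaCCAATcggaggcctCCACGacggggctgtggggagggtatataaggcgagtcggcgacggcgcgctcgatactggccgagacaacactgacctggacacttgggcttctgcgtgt
Herpud1: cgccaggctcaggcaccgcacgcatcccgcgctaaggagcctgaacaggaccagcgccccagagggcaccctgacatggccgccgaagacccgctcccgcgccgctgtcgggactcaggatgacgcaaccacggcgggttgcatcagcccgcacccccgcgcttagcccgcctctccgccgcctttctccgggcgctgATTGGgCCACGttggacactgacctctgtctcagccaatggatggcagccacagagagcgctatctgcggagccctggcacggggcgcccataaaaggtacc
Syvn1: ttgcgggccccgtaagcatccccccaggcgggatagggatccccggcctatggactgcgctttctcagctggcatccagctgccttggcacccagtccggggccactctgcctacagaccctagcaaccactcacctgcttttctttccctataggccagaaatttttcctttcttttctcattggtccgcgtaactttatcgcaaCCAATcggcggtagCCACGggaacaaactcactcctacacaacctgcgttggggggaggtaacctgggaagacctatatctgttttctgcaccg
In Hspa5 the match begins 65 bases before the start site, in Herpud1 52 bases and in Syvn1 44 bases before it.

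Expression is given as FPKM, a read level divided by gene length and by a scale set for each library, so levels of different genes can be compared. That scale differed from the number of reads assigned, as described under processing. Differences are between group means of log2(FPKM + 1) with the standard error (SE) from limma, fitted to all 9 libraries, and a gene passed at a Benjamini-Hochberg adjusted p under 0.05 over the 12642 genes with at least 1 FPKM in at least 3 libraries. Of the 33 genes 32 entered the test; Derl3 did not reach that level. Reads assigned to genes numbered 7595631 to 15141784 per library, but the share from the mitochondrial genome was 13.7% to 67.1% in PBA, 63.7% to 79.3% in HU and 14.8% to 49.7% in GC libraries. PBA3 (67.1%) and GC3 (49.7%) stood apart from the rest of their groups in this share. Reads outside the mitochondrial genome numbered 2887586 to 12824889 in PBA, 1568888 to 3037972 in HU and 5780141 to 12893802 in GC libraries. Pseudogenes took 0.955%, 1.18% and 4.83% of these reads in PBA1, PBA2 and PBA3, 3.73% to 7.54% in HU and 1.16% to 1.76% in GC libraries. Kidney identity was clear from the 8 proximal tubule markers, all above 0 in every library, but their summed level was 8258 to 56684 FPKM in PBA, 2340 to 3066 FPKM in HU and 48209 to 59587 FPKM in GC libraries. Kap alone made up 93.4% to 98.0% of that sum, and the other 7 markers summed to 288 to 1159 FPKM in PBA, 65.8 to 204 FPKM in HU and 974 to 1281 FPKM in GC libraries, with PBA1 (979.9 FPKM) and PBA2 inside the GC range. As whole tissue was sequenced, fewer cells of a type and less RNA per cell cannot be told apart in any value below.

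In ground control kidney the highest levels belonged to folding enzymes and lectins. P4hb, a disulfide isomerase that forms and rearranges disulfide bonds, averaged 160 ± 33.8 FPKM, the calcium-binding lectin gene Calr 114 ± 32.4 FPKM and Pdia3, the isomerase that works with the lectins on glycoproteins, 76.4 ± 26.7 FPKM (SD, n = 3 each). P4hb did not stand clear of Calr beyond their spread, nor Calr of Pdia3. Herpud1 (55.1 ± 20.1 FPKM), which organises ERAD complexes in the ER membrane, came next, ahead of Hspa5 (39.5 ± 10.9 FPKM), the main ER chaperone, Canx (39.2 ± 17.5 FPKM), the membrane-bound lectin, and Hsp90b1 (38.2 ± 6.76 FPKM), the ER member of the HSP90 family (SD, n = 3 each). These 4 also lay within one another's spread.

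The sensors were among the lowest. Atf6 averaged 1.73 ± 0.615, Eif2ak3 1.46 ± 0.159 and Ern1 0.769 ± 0.0369 FPKM in GC kidneys (SD, n = 3 each), while Xbp1, the factor below Ern1, was at 23.1 ± 2.69 FPKM. Sec61a1, the pore subunit of the import channel, was also low at 1.86 ± 0.405 FPKM, against 26.5 ± 5.55 FPKM for Sec61b, a small subunit of the same channel. Derl3, a derlin of secretory cells, was the lowest of all at 0.287 ± 0.0960 FPKM (SD, n = 3).

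**Figure D1:**
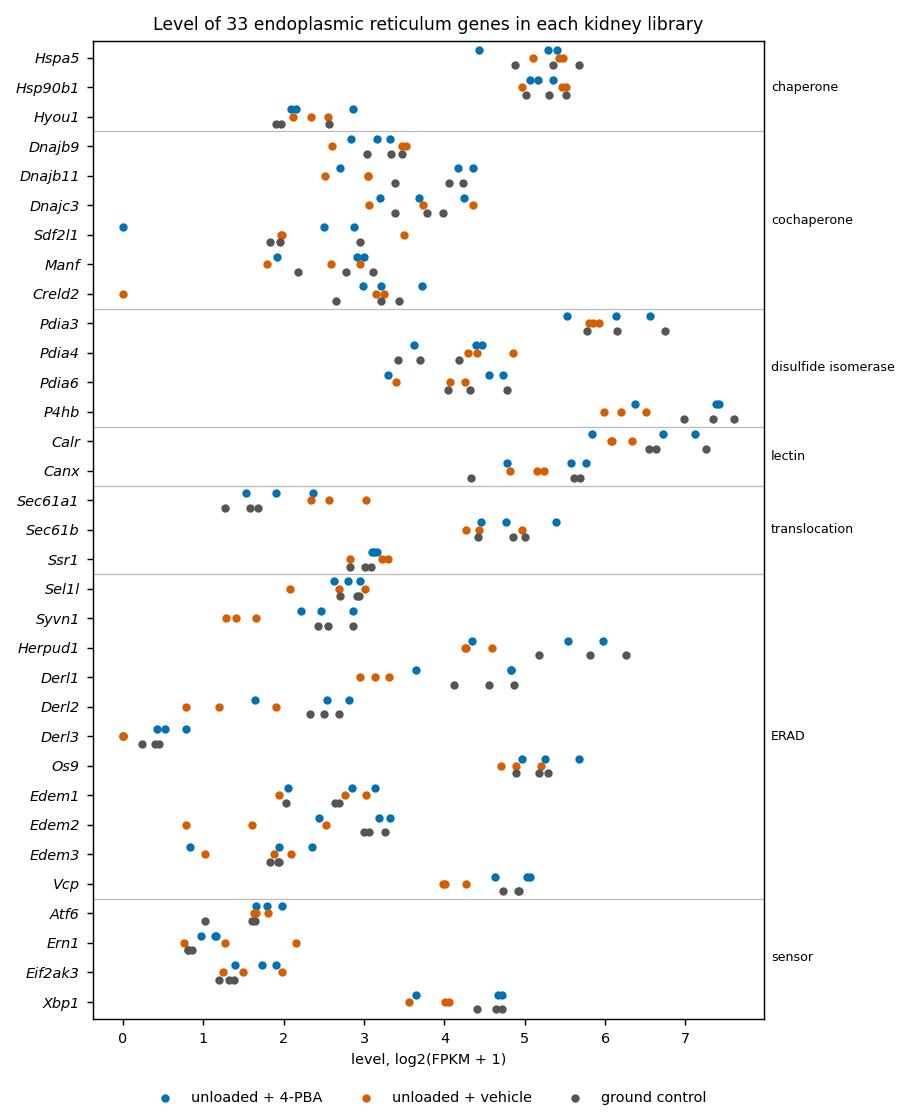
Level of each of the 33 genes as log2(FPKM + 1) on the x axis, in rows ordered by role, with 1 point per library and the PBA group above the HU group and the GC group in each row. Syvn1, Derl1 and Vcp show all 3 HU points to the left of the other groups, Sec61a1 shows HU points to the right of GC points, and Hspa5 shows the groups interleaved.

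The first comparison set unloaded mice on vehicle against ground controls. Of 32 genes 3 passed, 1 higher and 2 lower, and no chaperone, isomerase, lectin or sensor was among them. The ERAD genes Syvn1 and Derl1 fell and the import channel gene Sec61a1 rose. Over all genes tested limma called 10.2%, with 5.32% higher and 4.90% lower, so 3 of 32 is near the background share. The median difference of the 32 genes was -0.22, against -0.03 for all genes tested. In 12 of the 32 genes HU and GC levels were fully apart, 10 lower and 2 higher in HU; this held for 37.7% of all genes in either direction and for 19.4% in the lower one and 18.3% in the higher.

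Syvn1 (ENSMUSG00000024807; mm10 chromosome 19, 6046576 to 6053712) encodes the ubiquitin ligase at the core of the main ERAD complex. It had 1.44, 2.15 and 1.64 FPKM in HU1, HU2 and HU3, against 4.36, 4.86 and 6.24 FPKM in GC1, GC2 and GC3. All 3 HU libraries lay below all 3 GC libraries (log2 difference -1.16 ± 0.26, SE; limma adjusted p = 0.0271). The HU values rested on 41, 32 and 53 reads. Syvn1 overlaps Mrpl49 on the opposite strand, and whether reads were counted by strand is not given in the sources used here; Mrpl49 had 9.14 to 17.7 FPKM in HU and 13.1 to 22.04 FPKM in GC libraries (log2 difference -0.25, limma adjusted p = 0.631).

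Derl1 (ENSMUSG00000022365; chromosome 15, 57869502 to 57892448) encodes a membrane protein of the channel through which misfolded proteins leave the ER. Its levels were 6.69, 8.88 and 7.75 FPKM in HU1, HU2 and HU3, against 22.6, 28.2 and 16.4 FPKM in GC1, GC2 and GC3, again without overlap (log2 difference -1.39 ± 0.36, SE; limma adjusted p = 0.0398). Sec61a1 (ENSMUSG00000030082; chromosome 6, 88503579 to 88518905) went the other way, with 7.16, 4.92 and 4.07 FPKM in HU1, HU2 and HU3, against 1.99, 2.19 and 1.41 FPKM in GC1, GC2 and GC3. Every HU library lay above every GC library (log2 difference 1.14 ± 0.30, SE; limma adjusted p = 0.0407). Under scaling by total reads, by reads outside the mitochondrial genome and by trimmed means on recovered reads, Syvn1 and Derl1 stayed lower and Sec61a1 higher in HU. With total reads the Sec61a1 difference was 0.32 (limma adjusted p = 0.605), and that scaling moved the median of all genes to -0.78.

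**Figure D2:**
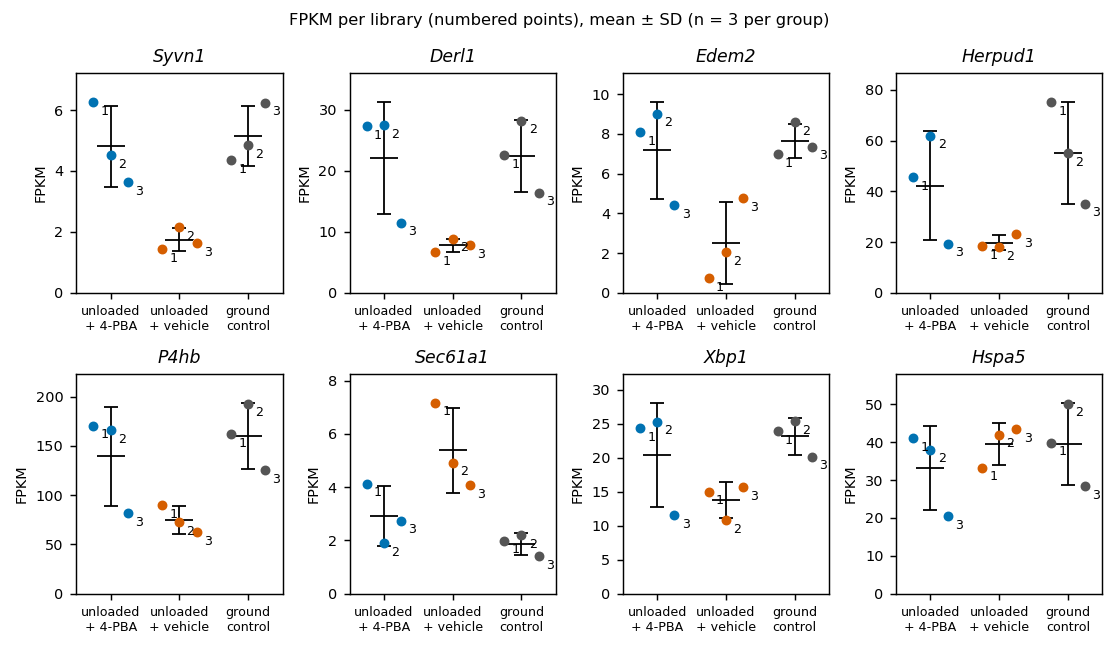
FPKM (y axis, from 0) of 8 genes in each library, with numbered points for libraries 1 to 3 of each group and the mean with its SD. HU libraries lie below GC libraries for Syvn1, Derl1, Edem2, Herpud1, P4hb and Xbp1 and above them for Sec61a1, and PBA3 lies below PBA1 and PBA2 in 7 of the 8 panels, all but Sec61a1.

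Other ERAD genes had differences of like size that did not pass. Edem2, which trims mannose from misfolded glycoproteins, had 0.725, 2.04 and 4.77 FPKM in HU1, HU2 and HU3, against 6.99, 8.61 and 7.36 FPKM in GC1, GC2 and GC3 (log2 difference -1.47 ± 0.42, SE; limma adjusted p = 0.0559). Herpud1 had 18.3, 18.04 and 23.1 FPKM in HU1, HU2 and HU3, against 75.3, 55.03 and 35.1 FPKM in GC1, GC2 and GC3. The lowest GC library, GC3, still lay above all HU libraries (log2 difference -1.37 ± 0.43, SE; limma adjusted p = 0.0724). Derl2, a second derlin, averaged 1.58 ± 1.04 FPKM in HU and 4.70 ± 0.706 FPKM in GC, and Vcp, the ATPase that pulls proteins out of the membrane, 16.02 ± 1.89 FPKM in HU and 28.1 ± 2.15 FPKM in GC (SD, n = 3 each; log2 differences -1.21 and -0.77, limma adjusted p = 0.0690 and 0.0651).

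The remaining ERAD genes differed by less. Sel1l, the partner that stabilises the Syvn1 ligase, had a log2 difference of -0.26, Os9, a lectin that delivers glycoproteins to it, -0.18, Edem1 0.12 and Edem3 -0.24, and the groups overlapped in each of these 4 genes. Derl3 had 0 reads in HU1, HU2 and HU3, against 7, 15 and 8 reads in GC1, GC2 and GC3. The limit that 0 reads allows is 0.252, 0.484 and 0.222 FPKM in HU1, HU2 and HU3. Each limit reaches into or above the GC range of 0.180 to 0.367 FPKM, so no single HU library can be set below every GC library. These limits do not weigh the 0 reads of all HU libraries together, and a joint count was not tested. Derl3 entered the fit without a filter on low values, where 0 of 33 genes passed in HU against GC. Summed over the 11 ERAD genes the level was 83.0 to 97.3 FPKM in HU, against 136 to 193 FPKM in GC libraries; Herpud1, Os9, Vcp and Derl1 had the highest levels in that sum, and of these only Derl1 passed.

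The chaperones, which carry the classic stress signal, showed no difference that passed. Hspa5 had 33.2, 41.9 and 43.4 FPKM in HU1, HU2 and HU3, against 39.8, 50.2 and 28.4 FPKM in GC1, GC2 and GC3. The groups overlapped, with a log2 difference of 0.03 and a 95% confidence interval of -0.72 to 0.78. Hsp90b1 had 30.3, 44.5 and 43.2 FPKM in HU1, HU2 and HU3, against 31.3, 44.8 and 38.5 FPKM in GC1, GC2 and GC3 (log2 difference 0.04, interval -0.55 to 0.62), also overlapping. Under scaling by total reads both were negative, at -1.01 for Hspa5 and -1.004 for Hsp90b1. Hyou1, a large chaperone that helps exchange nucleotide on the Hspa5 protein, had a log2 difference of 0.19.

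Among cochaperones, Dnajb11, which hands clients to the Hspa5 protein, had 6.42 ± 1.48 FPKM in HU and 14.3 ± 4.37 FPKM in GC with no overlap (SD, n = 3 each). Its difference of -1.02 had a limma adjusted p of 0.158. Dnajb9 and Dnajc3, of the same J-domain family, had differences of -0.08 and 0.00, and Manf, a secreted stress-induced protein, -0.24. Creld2, a secreted stress-response protein, was listed at 0 in HU1, which allows up to 0.368 FPKM, but had 8.47 and 7.88 FPKM in HU2 and HU3, against 8.28, 9.78 and 5.28 FPKM in GC1, GC2 and GC3. Its log2 difference of -0.97 rested on that library and was 0.10 without HU1. Sdf2l1, a partner of the J-domain proteins, had 10.3, 2.90 and 2.93 FPKM in HU1, HU2 and HU3, against 2.55, 6.74 and 2.89 FPKM in GC1, GC2 and GC3 (log2 difference 0.23, and -0.28 without HU1).

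None of the 4 disulfide isomerases passed. P4hb had 89.9, 72.3 and 62.4 FPKM in HU1, HU2 and HU3, against 162, 193 and 125 FPKM in GC1, GC2 and GC3, without overlap (log2 difference -1.08 ± 0.36, SE; limma adjusted p = 0.0804). Pdia4 had 27.8, 18.6 and 20.2 FPKM in HU1, HU2 and HU3, against 12.0, 17.2 and 9.67 FPKM in GC1, GC2 and GC3, with all HU libraries above all GC libraries (log2 difference 0.75 ± 0.32, SE; limma adjusted p = 0.155). Pdia3 had a difference of -0.36 and Pdia6 of -0.48. With total reads all 4 were negative, at -2.14 for P4hb, -1.46 for Pdia6, -1.41 for Pdia3 and -0.26 for Pdia4. Summed over the 4 genes the level was 157 to 188 FPKM in HU, against 204 to 343 FPKM in GC libraries, with P4hb and Pdia3 the main contributors. Of the lectins, Calr had -0.64, without overlap, and Canx -0.14, and in the import machinery Sec61b had -0.21 and Ssr1, a subunit of the translocon-associated complex, 0.15.

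None of the sensors passed. Atf6 had 2.09, 2.16 and 2.49 FPKM in HU1, HU2 and HU3, against 2.04, 2.13 and 1.02 FPKM in GC1, GC2 and GC3 (log2 difference 0.28). Ern1 had 3.44, 1.42 and 0.685 FPKM in HU1, HU2 and HU3, against 0.811, 0.746 and 0.749 FPKM in GC1, GC2 and GC3. HU1 and HU2 were above the GC range and HU3 below it (log2 difference 0.57, and 0.19 without HU1). With every GC library below 1 FPKM, Ern1 entered the test only through HU1, HU2, PBA1 and PBA3. Eif2ak3 had 2.95, 1.81 and 1.37 FPKM in HU1, HU2 and HU3, against 1.501, 1.60 and 1.29 FPKM in GC1, GC2 and GC3 (log2 difference 0.27). Xbp1 had 15.0, 10.8 and 15.7 FPKM in HU1, HU2 and HU3, against 23.9, 25.3 and 20.1 FPKM in GC1, GC2 and GC3, where HU lay wholly below GC (log2 difference -0.71 ± 0.32, SE; limma adjusted p = 0.175). Gene totals do not show the splicing of Xbp1.

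**Figure D3:**
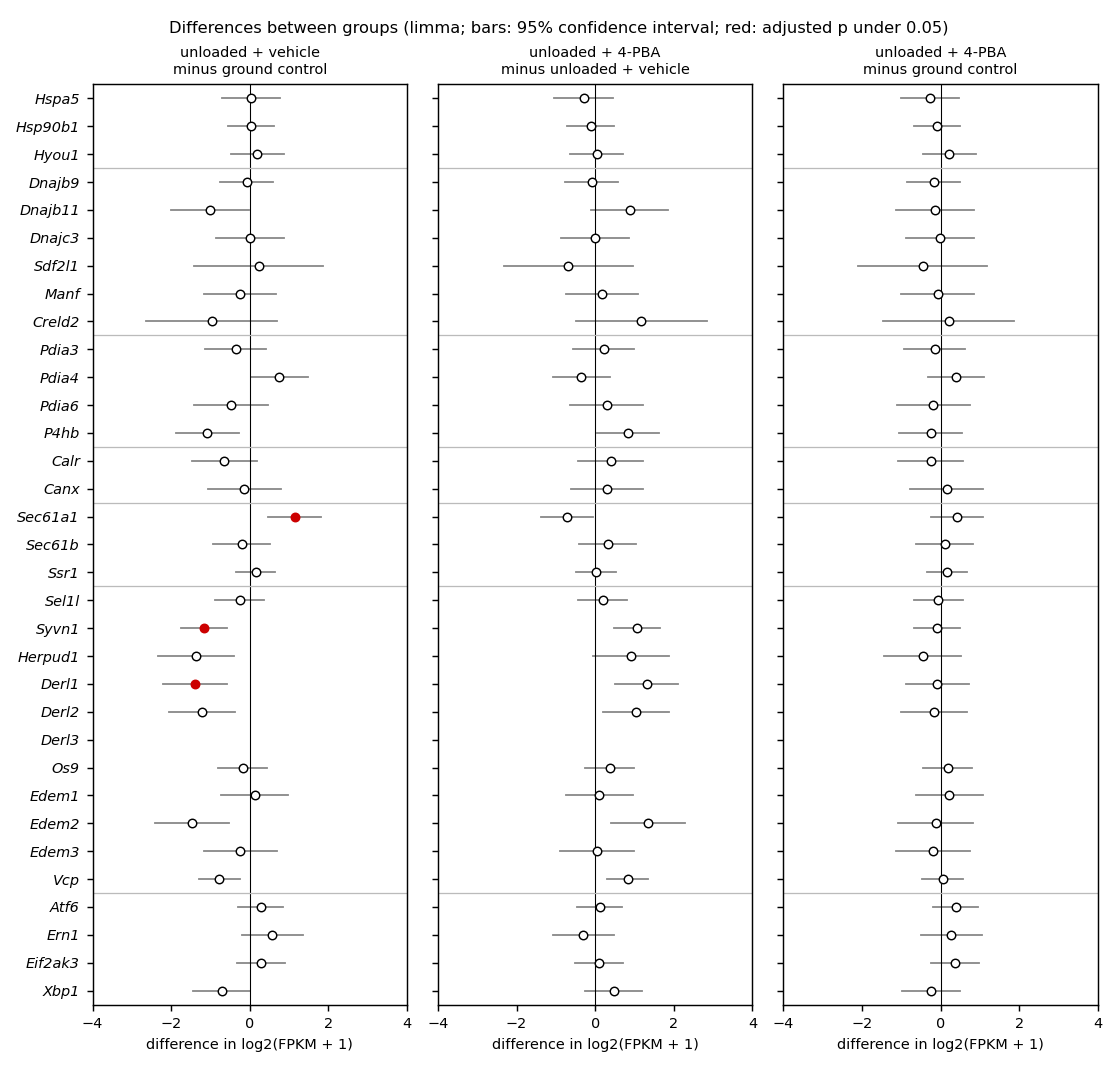
Difference in log2(FPKM + 1) on the x axis for each gene, HU minus GC on the left, PBA minus HU in the middle and PBA minus GC on the right, with bars for the 95% confidence interval and red points for adjusted p under 0.05. Sec61a1 at 1.14, Syvn1 at -1.16 and Derl1 at -1.39 are red in the left panel, and no point is red in the others.

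The 3 calls depended on which libraries entered. Without GC1, GC2 or GC3 none of the 32 genes passed, 1 passed without HU2 or PBA1 (Syvn1 in both cases), without HU1 (Derl2) and without HU3 (Edem2), and without PBA2 the same 3 did. Thus none of Syvn1, Derl1 and Sec61a1 passed without HU1, HU3 or any GC library. Without PBA3, which bears on HU against GC only by way of the residual spread, 9 passed (1 higher, 8 lower: Dnajb11, P4hb, Syvn1, Herpud1, Derl1, Derl2, Edem2 and Vcp), with 18.7% of all genes called. With the mitochondrial share as a covariate 0 of 32 passed, at log2 differences of -1.08 for Syvn1, -0.55 for Derl1 and 1.27 for Sec61a1, and 0.783% of all genes were called. Scaling by total reads gave 5 of 32 (18.5% of all genes), the 6 libraries alone 5 of 32 (13.9%), limma-voom 3 of 32 (10.4%) and leaving out both GC3 and PBA3 6 of 32 (11.3%). By limma-voom the 3 genes were Derl1, Sec61a1 and P4hb (adjusted p = 0.0493), and Syvn1 no longer passed (adjusted p = 0.0647). Sec61a1 was not among the genes that passed with total reads or without both GC3 and PBA3. That share was 63.7% to 79.3% in HU against 14.8% to 49.7% in GC libraries. The summed level of the 4 fibroblast markers, each above 0 in every library, was 75.4 to 179 FPKM in HU and 11.8 to 35.4 FPKM in GC libraries, and that of the 8 proximal tubule markers was lower in HU as given above. The T cell markers Cd3e and Cd3g summed to 3.32 to 12.0 FPKM in HU and 0.132 to 0.335 FPKM in GC libraries, with Cd3e at 0 in GC3. The part of these in the differences was not tested.

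Genes outside the 33 from the same pathways were counted in 4 lists of 100 names, of which 97 were tested. In HU 1 rose and 10 fell, together 11.3%, near the 10.2% of all genes, and the median was -0.14. Among 25 other folding genes Calu, a calcium-binding protein of the secretory route, rose (log2 difference 1.65), and Erp44, which retains client proteins in the early secretory route (-1.19), Sil1, a nucleotide exchange factor of the Hspa5 protein (-1.27), and Cnpy2 (-1.25) fell. Of 28 other ERAD genes only Aup1, which recruits a ubiquitin-conjugating enzyme to the membrane, fell (-1.5005). Of 29 further genes of import, signal peptide cleavage and glycosylation 4 fell, namely Ssr4 (-1.34), the oligosaccharyltransferase subunits Rpn1 (-1.36) and Dad1 (-1.43), and the signal recognition particle receptor subunit Srprb (-1.85). Of 15 other stress transducers Creb3, a membrane-bound transcription factor (-1.503), and Tmbim6, an ER membrane protein that limits cell death (-2.12), fell.

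The second comparison set 4-PBA-treated against vehicle-treated unloaded mice, and shares its HU libraries with the first, so that the differences of both are given side by side and not as separate evidence. No gene of the 32 passed by limma or by limma-voom, where limma called 2.69% of all genes (1.16% higher, 1.53% lower). An unadjusted limma p under 0.05 was found in 7 of the 32, and in 2543 of all 12642 genes tested. Of the 5 largest positive differences 4 were in ERAD genes (Edem2, Derl1, Syvn1 and Derl2) and the other in Creld2. The median over the 32 was 0.21, against 0.02 for all genes. Syvn1, Derl1 and Vcp, 3 of the 32, had every PBA library above every HU library, while 20.3% of all genes tested were fully apart in either direction (10.1% higher and 10.2% lower in PBA).

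Syvn1 had 6.27, 4.52 and 3.63 FPKM in PBA1, PBA2 and PBA3, against 1.44, 2.15 and 1.64 FPKM in HU1, HU2 and HU3 (log2 difference 1.07 ± 0.26, SE; limma adjusted p = 0.0621). Derl1 had 27.3, 27.5 and 11.5 FPKM in PBA1, PBA2 and PBA3, against 6.69, 8.88 and 7.75 FPKM in HU1, HU2 and HU3 (log2 difference 1.31 ± 0.36, SE; limma adjusted p = 0.0901). Both groups were apart in both genes, but PBA3 was the nearest PBA library to HU. For Vcp the values were 31.7, 32.6 and 23.8 FPKM in PBA1, PBA2 and PBA3, against 18.2, 15.1 and 14.8 FPKM in HU1, HU2 and HU3 (log2 difference 0.83 ± 0.24, SE; limma adjusted p = 0.0988).

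Edem2 had 8.08, 9.03 and 4.40 FPKM in PBA1, PBA2 and PBA3, against 0.725, 2.04 and 4.77 FPKM in HU1, HU2 and HU3 (log2 difference 1.34; limma adjusted p = 0.128), so PBA3 lay within the HU range. Herpud1 had 45.6, 62.0 and 19.3 FPKM in PBA1, PBA2 and PBA3, against 18.3, 18.04 and 23.1 FPKM in HU1, HU2 and HU3 (log2 difference 0.92; limma adjusted p = 0.274), with PBA3 again at the HU level. P4hb, with 171, 166 and 81.6 FPKM in PBA1, PBA2 and PBA3, against 89.9, 72.3 and 62.4 FPKM in HU1, HU2 and HU3 had PBA3 inside the HU range too (log2 difference 0.83; limma adjusted p = 0.230). In Xbp1, with 24.4, 25.2 and 11.6 FPKM in PBA1, PBA2 and PBA3, against 15.0, 10.8 and 15.7 FPKM in HU1, HU2 and HU3, PBA3 was also within the HU range (log2 difference 0.47; limma adjusted p = 0.446).

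The chaperones had small differences. Hspa5 had 41.1, 38.0 and 20.5 FPKM in PBA1, PBA2 and PBA3, against 33.2, 41.9 and 43.4 FPKM in HU1, HU2 and HU3 (log2 difference -0.30, 95% confidence interval -1.04 to 0.45). Without PBA3 that difference was 0.01. Hsp90b1 had 39.8, 32.5 and 35.0 FPKM in PBA1, PBA2 and PBA3, against 30.3, 44.5 and 43.2 FPKM in HU1, HU2 and HU3 (log2 difference -0.12, interval -0.70 to 0.47).

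Sec61a1 had 4.13, 1.90 and 2.74 FPKM in PBA1, PBA2 and PBA3, against 7.16, 4.92 and 4.07 FPKM in HU1, HU2 and HU3 (log2 difference -0.71; limma adjusted p = 0.218; 0.07 under scaling by total reads), with an overlap of PBA1 and HU3. Pdia4, with 21.1, 11.3 and 19.9 FPKM in PBA1, PBA2 and PBA3, against 27.8, 18.6 and 20.2 FPKM in HU1, HU2 and HU3, overlapped likewise (-0.36). Sdf2l1 had 6.33 and 4.64 FPKM in PBA1 and PBA2 but 0 reads in PBA3, which allows up to 0.434 FPKM, and its difference from HU of -0.69 was 0.21 without PBA3. For Creld2 the PBA libraries held 6.93 to 12.2 FPKM, and the difference of 1.18 from HU was 0.11 without HU1.

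Of the sensors, Atf6 had 2.95, 2.47 and 2.15 FPKM, Ern1 1.23, 0.966 and 1.22 FPKM and Eif2ak3 2.73, 1.62 and 2.32 FPKM in PBA1, PBA2 and PBA3. Their log2 differences from HU were 0.11, -0.30 and 0.10, with overlapping groups in each. Derl3 had 17, 20 and 9 reads in PBA1, PBA2 and PBA3 (0.342, 0.438 and 0.724 FPKM), against 0 in each HU library. Several markers of plasma cells and B cells were highest in PBA3. Igkc was at 223 FPKM in PBA3, against 5.34 and 12.05 FPKM in PBA1 and PBA2, 0 to 19.8 FPKM in HU and 5.84 to 7.92 FPKM in GC libraries. Ighm was at 52.1 FPKM in PBA3 and at most 5.56 FPKM in any other library, Jchain at 10.4 and at most 0.581 FPKM, and Cd79a at 1.54 and at most 0.662 FPKM. Mzb1 was at 0 in PBA3, and the part of these markers in the Derl3 values was not tested.

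Members without library values above are given by their means over the 3 groups, each with its SD and n = 3. Hyou1 averaged 4.33 ± 1.70 FPKM in PBA, 4.07 ± 0.749 FPKM in HU and 3.53 ± 1.21 FPKM in GC (log2 difference 0.04 for PBA minus HU). Dnajb9 had a mean of 7.69 ± 1.43 FPKM in PBA, 8.54 ± 3.04 FPKM in HU and 8.78 ± 1.46 FPKM in GC (log2 difference -0.09 for PBA minus HU). Dnajc3 was at 12.6 ± 4.96 FPKM in PBA, 13.05 ± 6.12 FPKM in HU and 12.3 ± 2.73 FPKM in GC (log2 difference -0.01 for PBA minus HU). The groups overlapped in all 3 of these genes. Manf averaged 5.44 ± 2.32 FPKM in PBA, 4.73 ± 2.13 FPKM in HU and 5.66 ± 2.06 FPKM in GC (log2 difference 0.17 for PBA minus HU). Dnajb11 had a mean of 14.0 ± 7.47 FPKM in PBA, 6.42 ± 1.48 FPKM in HU and 14.3 ± 4.37 FPKM in GC (log2 difference 0.87 for PBA minus HU). Among the isomerases and lectins the mean was lowest in HU in Pdia3, Pdia6, Calr and Canx. Pdia3 averaged 69.2 ± 23.9 FPKM in PBA, 57.0 ± 2.52 FPKM in HU and 76.4 ± 26.7 FPKM in GC (log2 difference 0.22 for PBA minus HU). Pdia6 had a mean of 18.9 ± 8.86 FPKM in PBA, 14.4 ± 4.41 FPKM in HU and 20.4 ± 5.63 FPKM in GC (log2 difference 0.29 for PBA minus HU). The lectins hold sugar-bearing proteins in the ER until they are folded. Calr averaged 99.6 ± 41.1 FPKM in PBA, 71.0 ± 7.38 FPKM in HU and 114 ± 32.4 FPKM in GC (log2 difference 0.39 for PBA minus HU). Canx had a mean of 42.2 ± 14.1 FPKM in PBA, 32.8 ± 5.09 FPKM in HU and 39.2 ± 17.5 FPKM in GC (log2 difference 0.30 for PBA minus HU). Sec61b and Ssr1 serve protein import. Sec61b averaged 29.3 ± 10.3 FPKM in PBA, 23.0 ± 6.35 FPKM in HU and 26.5 ± 5.55 FPKM in GC (log2 difference 0.32 for PBA minus HU). Ssr1 had a mean of 7.73 ± 0.215 FPKM in PBA, 7.75 ± 1.44 FPKM in HU and 6.86 ± 0.727 FPKM in GC (log2 difference 0.01 for PBA minus HU). Sel1l and Os9 work with the Syvn1 ligase. Sel1l averaged 5.95 ± 0.767 FPKM in PBA, 5.24 ± 1.93 FPKM in HU and 6.24 ± 0.659 FPKM in GC (log2 difference 0.20 for PBA minus HU). Os9 had a mean of 39.1 ± 10.1 FPKM in PBA, 29.8 ± 5.43 FPKM in HU and 33.9 ± 4.76 FPKM in GC (log2 difference 0.37 for PBA minus HU). The last of the ERAD genes were a derlin and a pair that marks misfolded glycoproteins. Derl2 averaged 4.31 ± 2.00 FPKM in PBA, 1.58 ± 1.04 FPKM in HU and 4.70 ± 0.706 FPKM in GC (log2 difference 1.04 for PBA minus HU). Edem1 had a mean of 5.69 ± 2.35 FPKM in PBA, 5.23 ± 2.18 FPKM in HU and 4.57 ± 1.29 FPKM in GC (log2 difference 0.10 for PBA minus HU). Edem3 was at 2.58 ± 1.69 FPKM in PBA, 2.33 ± 1.17 FPKM in HU and 2.74 ± 0.159 FPKM in GC (log2 difference 0.05 for PBA minus HU).

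The outcome turned on PBA3, which lay below both PBA1 and PBA2 in 27 of the 32 genes (84.4%), against 44.2% of all genes tested, and above both in 0, against 41.1% of all genes. Without PBA3 7 genes rose in 4-PBA-treated kidneys, all with limma adjusted p under 0.05 and with 10.4% of all genes called. These were Dnajb11 (log2 difference 1.40), P4hb (1.17), Syvn1 (1.22), Herpud1 (1.39), Derl1 (1.70), Derl2 (1.38) and Vcp (0.97). With all 9 libraries their differences from HU lay between 0.83 and 1.31. PBA3 was the PBA library with the high mitochondrial share, 67.1% against 15.2% in PBA1 and 13.7% in PBA2, and its fibroblast marker sum was 164 FPKM against 41.9 and 9.82 FPKM. The 3 adipocyte markers summed to 315 FPKM in PBA3, against 8.57 and 0.813 FPKM in PBA1 and PBA2, and to 297 FPKM in GC2. Its proximal tubule marker sum was 8258 FPKM, against 30145 and 56684 FPKM in PBA1 and PBA2, and the plasma cell and B cell markers are given above. With the mitochondrial share as a covariate 0 of 32 passed, with 0.957% of all genes called, and the median of the 32 was -0.20. Without both GC3 and PBA3 6 of 32 rose (8.84% of all genes), with total reads 1 of 32, Syvn1 (5.71%), and with the 6 libraries compared alone 0 of 32 (0.134%). The part of these in the differences was not tested.

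**Figure D4:**
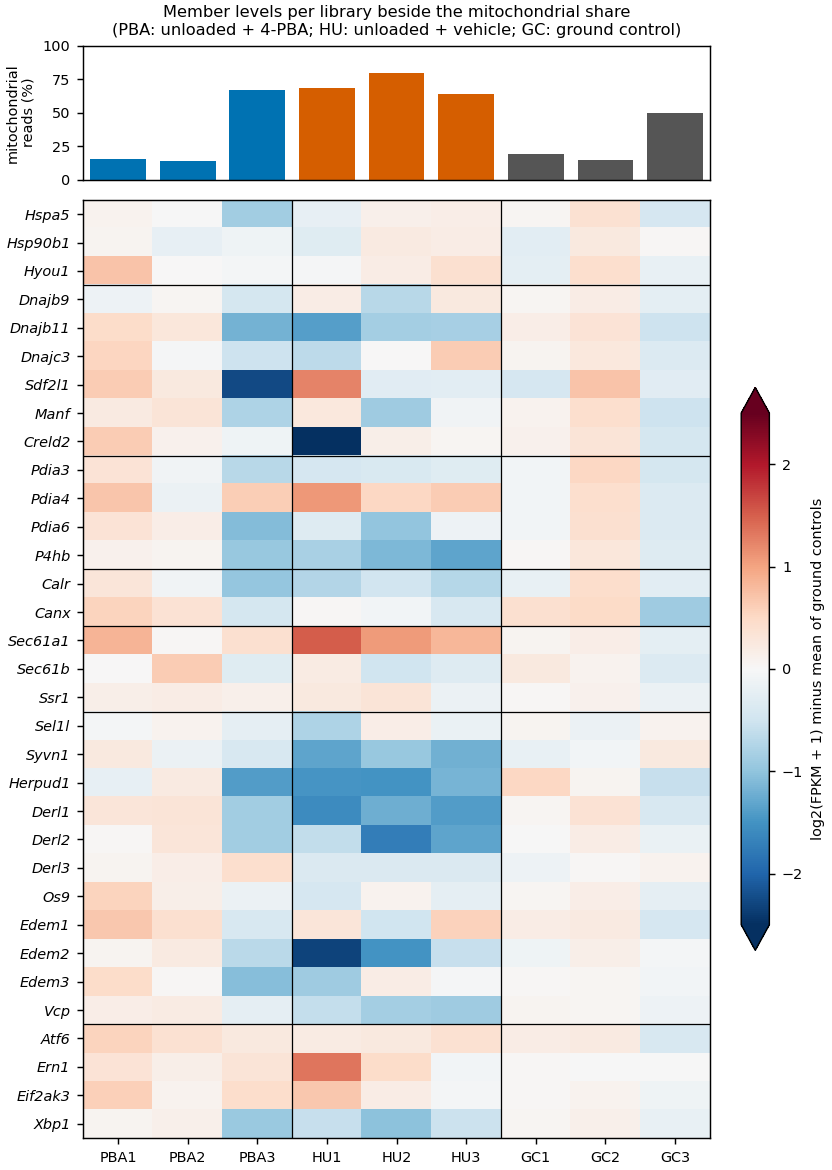
Log2(FPKM + 1) of each gene in each library minus the mean of the 3 GC libraries (colour, with values beyond 2.5 drawn in the end colours), under bars of the percent of reads from the mitochondrial genome, with libraries ordered PBA, HU, GC. PBA3, at 67.1% mitochondrial reads, is blue in Dnajb11, P4hb, Herpud1, Derl1 and Xbp1 as the HU libraries are, while PBA1 and PBA2 are near white or red.

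Of the 97 tested genes in the other pathway lists, Sil1 (log2 difference 1.43, limma adjusted p = 0.0441) and Aup1 (1.26, limma adjusted p = 0.0375) rose with 4-PBA and 0 fell, together 2.06% against 2.69% of all genes. Both had fallen in HU relative to GC. Aup1 had 29.7, 37.6 and 24.4 FPKM in PBA1, PBA2 and PBA3, against 10.02, 14.0 and 12.2 FPKM in HU1, HU2 and HU3, with no overlap. The other 2 lists, of import and glycosylation genes and of stress transducers, had 0 genes past the threshold and medians of 0.32 and 0.40.

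The last comparison set 4-PBA-treated unloaded mice against ground controls. None of the 32 genes passed, and limma called 0.00% of all genes (0 by limma-voom too); 0 of the 32 had an unadjusted p under 0.05, against 165 of 12642 genes. The median of the 32 was -0.08, and 0.25 when PBA3 was left out. PBA and GC levels were fully apart in 4 of 32 genes, and in 8.00% of all genes tested (4.37% higher and 3.63% lower in PBA). These 4 were the 3 sensors and Ssr1, all higher in PBA, with log2 differences of 0.39 for Atf6, 0.27 for Ern1, 0.37 for Eif2ak3 and 0.16 for Ssr1. Ern1 was below 1 FPKM in GC1, GC2 and GC3 and entered the test only through PBA1, PBA3, HU1 and HU2. Its place among these 4 is therefore a description and carries no weight as a result.

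For the genes that had passed in the first comparison the differences of PBA from GC were -0.10 (95% confidence interval -0.68 to 0.48) for Syvn1, -0.08 (-0.89 to 0.72) for Derl1 and 0.42 (-0.24 to 1.09) for Sec61a1. Syvn1 had 6.27, 4.52 and 3.63 FPKM in PBA1, PBA2 and PBA3, against 4.36, 4.86 and 6.24 FPKM in GC1, GC2 and GC3, wholly interleaved. Hspa5 was at -0.27 and Herpud1 at -0.46, and Sdf2l1, with its 0 reads in PBA3, at -0.46. The widest intervals belonged to Sdf2l1 and Creld2, the genes with a library at 0.

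The FPKM of all 33 genes summed to 920 in PBA1, 828 in PBA2 and 480 in PBA3. The sum was 544 to 550 in HU and 611 to 962 in GC libraries. As a share of reads outside the mitochondrial genome the 33 genes took 0.365% to 0.636% in PBA, 0.387% to 0.452% in HU and 0.395% to 0.602% in GC libraries. HU lay below GC in the first measure and overlapped it in the second. Within GC, GC3 was the lowest library in 25 of the 32 genes (78.1%), against 41.7% of all genes tested, and it was the GC library with the highest mitochondrial share.

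Genes with and without the stress element can be set side by side. The 10 tested genes with either form of the element had HU minus GC differences from -1.37 (Herpud1) to 0.04 (Hsp90b1) with a median of -0.56, and the 17 with a window but neither form from -1.47 (Edem2) to 0.75 (Pdia4) with a median of -0.21. Of the 3 genes that passed, Syvn1 holds the element, and Derl1 and Sec61a1 had no window. For PBA minus HU the medians were 0.35 with and 0.20 without the element.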

How the data were processed

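The submitters' processing notes name CASAVA, cutadapt, HISAT2 and the mm10 genome; counter, versions and use of strand (libraries were directional, per the labels' protocols) were not stated. The values the authors deposited behave as FPKM: multiplied by gene length and 1 factor per library they came out as whole reads in 100% of cases within 0.01. All 33 genes have the coordinates of GENCODE mouse release M21, as do 98.1% of all genes. The fit was limma 3.58.1 in R 4.3.3 on log2(FPKM + 1), with a trend, 3 groups, 9 libraries and 2-sided p-values. The members and lists were chosen with earlier results of these data known. By rule, every member was named with group means, and library values were given for members past the threshold, Hspa5, Hsp90b1, the 3 sensors, Xbp1, the 3 largest rises and falls in each comparison, and the highest and lowest members in ground controls; library values of Vcp and Aup1 were added after their values were seen. Alternatives covered pseudocounts of 0.1 and 4, filters, scalings, limma-voom on recovered reads, a replicate block, the 6 libraries compared, a mitochondrial covariate, protein-coding genes and libraries left out. The labels do not state that the samples are separate animals, so p-values measure only the spread between these samples, which may be technical. Limits from 3 reads cover counting error only. The code was tested on simulated data.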

Additional observations from a re-analysis of the deposited data

How the results depend on the processing

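Of the 32 tested genes, 3 passed in HU against GC. That count was 0 with the mitochondrial covariate (0.783% of all genes called) and 0 of 33 without a filter on low values (0.783%). It was 1 with the replicate number as a block (7.15%). With mean FPKM of at least 5 it was 1 of 23 (15.9%), and that filter took Syvn1 and Sec61a1 out of the test. The count was 5 with scaling by total reads and with the 6 libraries compared alone. Without both GC3 and PBA3 it was 6, and 0 to 9 when 1 library was left out. In PBA against HU it was 0, and 1 with total reads, 6 without both GC3 and PBA3, and 0 to 7 with 1 library left out; in PBA against GC it was 0 under every alternative run. The median difference of -0.22 in HU against GC was -1.16 with total reads and 0.31 with the covariate, and that of 0.21 in PBA against HU was 1.10 and -0.20. The median in PBA against GC ranged from -0.21 to 0.25 with 1 library left out. Over all genes, HU against GC gave 672 higher and 620 lower, 303 and 2036 with total reads, 848 and 468 with reads outside the mitochondrial genome, 822 and 499 with limma-voom, 48 and 51 with the covariate and 139 and 99 without a filter; PBA against HU gave 147 and 193, 596 and 126 with total reads, 134 and 325 with limma-voom and 2 and 15 with the 6 libraries alone. In the replicate block the 1 gene was Derl1. Deviations from the group means in same-numbered libraries 1, 2 and 3 were correlated at 0.03, -0.20 and -0.10 for HU and GC. They were 0.15, -0.05 and 0.29 for PBA and GC, and 0.09, -0.06 and -0.08 for PBA and HU. Pairs with unlike numbers ranged from -0.33 to 0.31. These values cannot decide whether the numbers pair samples, and the labels do not state it.

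Sign changes are listed only for members given library values by rule, in comparisons where they did not pass. Other members changed sign too. With 1 library left out this was 12 of 153 values in HU against GC, 19 of 153 in PBA against HU and 26 of 153 in PBA against GC. Under the remaining alternatives it was 23, 20 and 13 of 201 values in the same order. Signs of the listed members changed as follows. With total reads, HU minus GC was -1.01 for Hspa5, -1.004 for Hsp90b1, -0.58 for Sdf2l1, -0.26 for Pdia4, -0.42 for Atf6 and -0.38 for Eif2ak3, and PBA minus HU was 0.66 for Hspa5, 0.84 for Hsp90b1, 0.21 for Sdf2l1, 0.57 for Pdia4, 0.069 for Sec61a1 and 0.25 for Ern1. With the covariate, Xbp1 was 0.031 in HU minus GC and -0.20 in PBA minus HU, where Herpud1 was -0.087 and Atf6 -0.20. Without both GC3 and PBA3, Hspa5 was -0.18 in HU minus GC and 0.0088 in PBA minus HU, Sdf2l1 0.21 in PBA minus HU, and PBA minus GC was 0.29 for Sdf2l1, 0.18 for Syvn1, 0.12 for Derl1, 0.12 for Edem2 and 0.011 for Xbp1. In PBA minus GC with reads outside the mitochondrial genome, Hsp90b1 was 0.0054 and Derl1 0.00056, and with the covariate Derl1 was 0.00092. With 1 library left out, HU minus GC ranged from -0.18 to 0.22 for Hspa5, -0.10 to 0.21 for Hsp90b1, -0.28 to 0.58 for Sdf2l1 and -1.52 to 0.10 for Creld2. PBA minus HU ranged from -0.48 to 0.0088 for Hspa5, -1.23 to 0.21 for Sdf2l1, -0.62 to 0.081 for Ern1 and -0.063 to 0.30 for Eif2ak3. PBA minus GC ranged from -0.48 to 0.038 for Hspa5, -0.21 to 0.038 for Hsp90b1, -0.9982 to 0.44 for Sdf2l1, -0.014 to 0.38 for Creld2, -0.43 to 0.094 for P4hb, -0.27 to 0.054 for Syvn1, -0.80 to 0.015 for Herpud1, -0.28 to 0.31 for Derl1, -0.30 to 0.15 for Edem2 and -0.43 to 0.10 for Xbp1. The cause of these changes was not tested. Syvn1 passed in 11 of 20 alternatives, Derl1 in 12 of 21 and Sec61a1 in 8 of 20 in HU against GC, each with the sign given in the report.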
